A study of Mus musculus with 18 samples.

Results

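The interleukin 1 (IL-1) genes described here are 8 of the 38887 genes in each library and were chosen by name. They are the agonist ligands Il1a, Il1b and Il18, the receptor antagonist Il1rn and the binding protein Il18bp, and the receptor genes Il1r1, Il1r2 and Il1rap. RNA-Seq was performed with bone marrow-derived macrophages (BMMs) of female C57BL/6J mice aged 10 to 23 weeks, differentiated for 6 days in M-CSF at 50 ng/ml. The 18 libraries fall into 6 groups of n = 3, which are wild-type (WT), GILZ KO and GILZ TG cells, each either left untreated or given LPS at 100 ng/ml for 4 h. GILZ is the protein of Tsc22d3, a glucocorticoid-induced regulator of transcription. Mice called WT carried a Cre knock-in at Lyz2 (Lyz2tm1(cre)Ifo), GILZ KO mice (Tsc22d3 f/f Lyz2tm1(cre)Ifo) lost Gilz exon 6 in cells with active Cre, and GILZ TG mice (Tsc22d3Rosa26EGFPtg Lyz2tm1(cre)Ifo) expressed a Gilz-1 cDNA from ROSA26 once Cre had removed a stop cassette. By the study's methods all 3 genotypes carry Cre at Lyz2, in how many copies is not stated, and the alterations are directed to cells that use the Lyz2 promoter. Within a treatment, each library is described as an independent preparation. Whether untreated and LPS libraries with the same number come from 1 mouse is not stated, and the main tests did not pair them. The comparisons ask how far the IL-1 genes respond to LPS and whether loss or excess of GILZ changes their level or that response.

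IL-1α and IL-1β, the products of Il1a and Il1b, bind the receptor encoded by Il1r1, which then recruits the accessory chain encoded by Il1rap to start MyD88 signalling. IL-18 uses a related receptor of its own, and both IL-1β and IL-18 are made as precursors that caspase-1 cuts after an inflammasome has formed. The family carries its own brakes, since the product of Il1rn occupies the IL-1 receptor without signalling, the receptor encoded by Il1r2 binds IL-1 without passing on a signal, and the product of Il18bp captures IL-18. Macrophages exposed to bacterial LPS are a classical source of IL-1β.

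In the GENCODE annotation of GRCm38, Il1a (ENSMUSG00000027399) lies on the minus strand at chr2:129299610-129309972 and Il1b (ENSMUSG00000027398) on the minus strand at chr2:129364570-129371139, with 54597 bases between them. Il1rn (ENSMUSG00000026981) lies on the same chromosome, 105013075 bases from Il1b, at chr2:24336853-24351494 on the plus strand. The receptor genes Il1r2 (ENSMUSG00000026073, chr1:40074079-40125231) and Il1r1 (ENSMUSG00000026072, chr1:40225080-40317257) are neighbours on the plus strand with 99848 bases between them. Il18 (ENSMUSG00000039217) lies at chr9:50554827-50581840 on the plus strand, Il18bp (ENSMUSG00000070427) at chr7:102014885-102018690 on the minus strand and Il1rap (ENSMUSG00000022514) at chr16:26581704-26730117 on the plus strand.

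The 250 bases before the RefSeq start are shown for the genes with the largest response to LPS, Il1a and Il1b, and for Il1rap. Of the members called in all genotypes, the receptor gene Il1rap had the smallest response. The windows are chr2:129309973-129310222 (minus strand) for Il1a, chr2:129371140-129371389 (minus strand) for Il1b and chr16:26581455-26581704 (plus strand) for Il1rap in GRCm38.p6, written 5′ to 3′ along the gene, and capitals mark every match to a searched motif on either strand.
Il1a: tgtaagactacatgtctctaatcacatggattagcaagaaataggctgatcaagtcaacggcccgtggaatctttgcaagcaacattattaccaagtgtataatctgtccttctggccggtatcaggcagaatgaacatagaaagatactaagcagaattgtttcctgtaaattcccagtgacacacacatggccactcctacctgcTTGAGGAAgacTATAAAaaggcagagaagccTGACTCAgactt
Il1b: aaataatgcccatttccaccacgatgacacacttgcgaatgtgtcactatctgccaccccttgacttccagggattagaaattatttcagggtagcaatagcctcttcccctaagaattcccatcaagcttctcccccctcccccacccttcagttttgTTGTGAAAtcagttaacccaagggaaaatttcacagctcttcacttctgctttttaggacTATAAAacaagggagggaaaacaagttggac
Il1rap: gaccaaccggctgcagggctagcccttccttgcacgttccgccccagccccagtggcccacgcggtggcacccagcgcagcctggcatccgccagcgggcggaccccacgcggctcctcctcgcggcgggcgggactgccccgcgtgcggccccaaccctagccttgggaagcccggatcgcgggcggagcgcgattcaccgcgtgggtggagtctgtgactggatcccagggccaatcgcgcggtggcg
Searched were AP-1 (TGANTCA, in 6.7% of the 32851 RefSeq windows), C/EBP (TTNCNNAA, 36.8%), PU.1 (GAGGAA, 23.3%), the TATA box (TATAAA, 12.4%), CRE (TGACGTCA, 1.5%), the ISRE (3.0%) and the kappaB consensus (3.9%). The Il1a window holds a TATA match 32 to 27 bases before the start and an AP-1 match at 12 to 6 bases, and its C/EBP match at 43 to 36 bases overlaps the PU.1 match at 41 to 36 bases. The Il1b window likewise has a TATA match, 31 to 26 bases before the start, and a C/EBP match at 91 to 84 bases. The Il1rap window has none of these letters, nor does that of Il1r2. Among the other genes, a C/EBP match lies in the window of Il18bp, in 2 of the 3 windows of Il1rn and in both of Il1r1, the last of which also holds the only kappaB match of the 8 genes, and Il18 has a TATA match 175 to 170 bases before its start. An AP-1 match lies in 1 of the 3 windows of Il1rn, 141 to 135 bases before the start. A match is a description of letters and not of a bound site.

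Library totals lay between 14583055 and 38557029 expected counts (reads assigned to genes, shared among transcripts where needed). Levels are given as TPM, a share of all transcripts of a library that is scaled by transcript length, and changes as log2 fold changes ± SE from edgeR's quasi-likelihood test on the counts. A gene is called where its p-value, adjusted by Benjamini-Hochberg over all genes tested, is under 0.05. Tsc22d3 matched the genotypes, with 16.5 ± 2.08 TPM (SD, n = 3) in untreated WT, 2.34 ± 0.461 in GILZ KO and 156 ± 3.93 in GILZ TG, and 5.15 ± 0.627, 2.91 ± 0.392 and 132 ± 7.65 TPM after LPS, where the difference of GILZ KO from WT was not called (-0.69 ± 0.14, edgeR, adjusted p = 0.15). Lyz2, the gene that carries Cre, stood at 12839.8 ± 2276 TPM in untreated WT but at 33.6 ± 10.6 in GILZ KO and 33.0 ± 18.3 in GILZ TG, so that the state of Gilz and that of Lyz2 cannot be told apart in comparisons with WT. All 9 macrophage markers exceeded 1 TPM in every library. Their summed TPM was highest in GILZ TG replicates 1 and 2, at 5287 and 5199 untreated, against 4216 to 4915 in the other untreated libraries. After LPS it was 4752 and 5002 in these replicates, against 3900 to 4458 in the other treated libraries. GILZ TG replicates 1 and 2 stood apart in both treatments, with summed TPM of 87.55 to 124 for 10 stromal markers, 187 to 516 for 8 neutrophil lineage markers and 49.5 to 112 for 7 B lineage markers, against 5.31 to 25.7, 20.7 to 83.5 and 4.2 to 19.5 in the other 14 libraries. In these libraries 7 stromal, 5 to 6 neutrophil and 3 B lineage markers exceeded 1 TPM, against 2 to 6, 4 to 5 and 1 to 2 elsewhere. Fold changes against GILZ TG are therefore given with and without them, whereas comparisons of ratios with GILZ TG use all 3 replicates.

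In untreated WT cells Il1rn was the most abundant of the 8 transcripts, with a mean of 28.7 ± 2.42 TPM (SD, n = 3), followed by Il1rap with 9.45 ± 1.08, Il1b with 6.44 ± 1.82, Il18 with 5.19 ± 0.636, Il18bp with 3.02 ± 0.48, Il1a with 2.25 ± 1.03, Il1r1 with 0.40 ± 0.164 and Il1r2 with 0.247 ± 0.298 TPM. Among neighbours in this order the ranges over libraries overlapped for Il1b and Il18, for Il18bp and Il1a and for Il1r1 and Il1r2. LPS changed the order, with Il1b and Il1a moving above Il1rn and Il1rap moving below Il18bp, while Il1r1 and Il1r2 stayed last. Il1b came first with 4399.7 ± 575 TPM, then Il1a with 2129 ± 274, Il1rn with 973 ± 79.1, Il18 with 132 ± 11.7, Il18bp with 46.1 ± 4.59, Il1rap with 13.3 ± 0.255, Il1r1 with 0.577 ± 0.0252 and Il1r2 with 0.237 ± 0.211 TPM, and no neighbours overlapped.

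**Figure D1:**
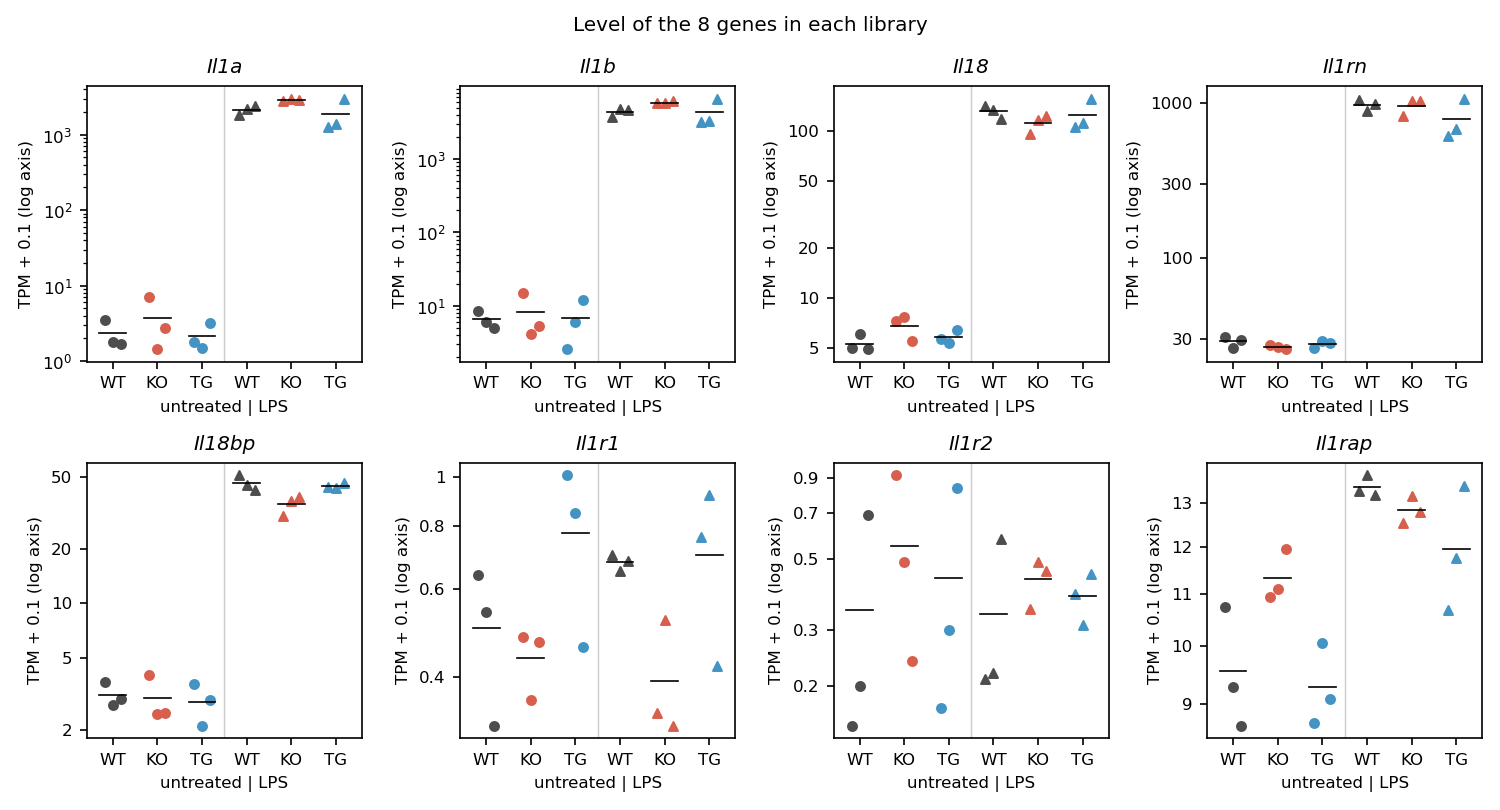
Level of each of the 8 genes, as TPM + 0.1 on a log axis, in every library of WT, GILZ KO (KO) and GILZ TG (TG) cells, untreated (circles) or after LPS (triangles), with the 3 replicates in order and lines at the group means. The ligands, Il1rn and Il18bp lie far higher after LPS in all genotypes, Il1rap lies slightly higher, and Il1r1 and Il1r2 stay below 1 TPM.

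LPS raised the 3 ligands, Il1rn, Il18bp and Il1rap in all genotypes, from 1.83-fold for Il1rap in GILZ KO to 1458-fold for Il1a in WT. The called members numbered 7 of 8 in WT, 6 of 8 in GILZ KO and 6 of 8 in GILZ TG, all of them higher after LPS, where 68.6%, 68.5% and 68.7% of the 13169 genes tested were called, and 33.5%, 33.2% and 33.6% called higher. The members' median log2 fold change was 4.93, 4.46 and 4.88, beside medians over all genes of -0.0218, -0.0227 and -0.0214. In such bulk samples fewer cells of a type and less RNA per cell cannot be told apart.

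Il1a, which codes for IL-1α, had 3.43, 1.71 and 1.60 TPM in the untreated WT libraries, 6.98, 1.33 and 2.66 in GILZ KO and 1.66, 1.39 and 3.06 in GILZ TG. After LPS it had 1833, 2181 and 2374 TPM in WT, 2819, 2932 and 2915 in GILZ KO and 1255, 1364 and 3003 in GILZ TG. Every treated library lay far above every untreated library, whatever the genotype. The log2 fold change was 10.51 ± 0.54 in WT, 10.22 ± 0.53 in GILZ KO and 10.5 ± 0.55 in GILZ TG (edgeR, adjusted p = 1.47e-11, 1.83e-11 and 1.75e-11).

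Il1b, which codes for the IL-1β precursor, had 8.46, 5.94 and 4.92 TPM in untreated WT, 14.9, 4.09 and 5.18 in GILZ KO and 2.47, 5.92 and 11.9 in GILZ TG. After LPS the values were 3741, 4802 and 4656 TPM in WT, 5749, 5701 and 6103 in GILZ KO and 3157, 3293 and 6637 in GILZ TG. As for Il1a, treated and untreated libraries were far apart and the untreated values scattered within each genotype. The log2 fold change was 10.04 ± 0.56, 10.11 ± 0.56 and 9.96 ± 0.56 in WT, GILZ KO and GILZ TG (edgeR, adjusted p = 3.89e-11, 3.94e-11 and 4.36e-11).

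Il18 rose less steeply. It had 4.86, 5.92 and 4.78 TPM in untreated WT, 7.14, 7.5 and 5.34 in GILZ KO and 5.51, 5.26 and 6.24 in GILZ TG, and 143, 134 and 119, 95.75, 117 and 123, and 105, 112 and 158 TPM after LPS in the same order of genotypes. No treated library overlapped an untreated one, whereas the genotypes overlapped within each treatment. The log2 fold change was 5.30 ± 0.20 in WT, 4.70 ± 0.20 in GILZ KO and 5.09 ± 0.20 in GILZ TG (edgeR, adjusted p = 1.75e-13, 9.87e-13 and 3.14e-13).

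The inhibitors rose together with the ligands. Il1rn, the receptor antagonist, was present before LPS at 30.7, 26.0 and 29.4 TPM in WT, 27.2, 26.3 and 25.5 in GILZ KO and 26.0, 29.0 and 27.9 in GILZ TG. LPS brought it to 1048, 890.5 and 982 TPM in WT, 819.9, 1029 and 1036 in GILZ KO and 608, 683 and 1069 in GILZ TG. Its untreated values were the most even of the induced genes, and after LPS the lowest values belonged to GILZ TG replicates 1 and 2. The log2 fold change was 5.72 ± 0.21, 5.86 ± 0.22 and 5.50 ± 0.21 (edgeR, adjusted p = 1.72e-13, 1.72e-13 and 2.66e-13).

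Il18bp, whose product neutralises IL-18, had 3.56, 2.64 and 2.86 TPM in untreated WT, 3.92, 2.34 and 2.37 in GILZ KO and 3.46, 2.0 and 2.82 in GILZ TG. After LPS it reached 51.1, 45.15 and 42.1 TPM in WT, 30.45, 36.9 and 38.4 in GILZ KO and 43.8, 43.4 and 46.1 in GILZ TG. The GILZ KO libraries were the lowest after LPS and did not overlap those of WT or GILZ TG. The log2 fold change was 4.56 ± 0.18, 4.22 ± 0.19 and 4.66 ± 0.19 in WT, GILZ KO and GILZ TG (edgeR, adjusted p = 4.32e-13, 2.30e-12 and 4.74e-13).

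**Figure D2:**
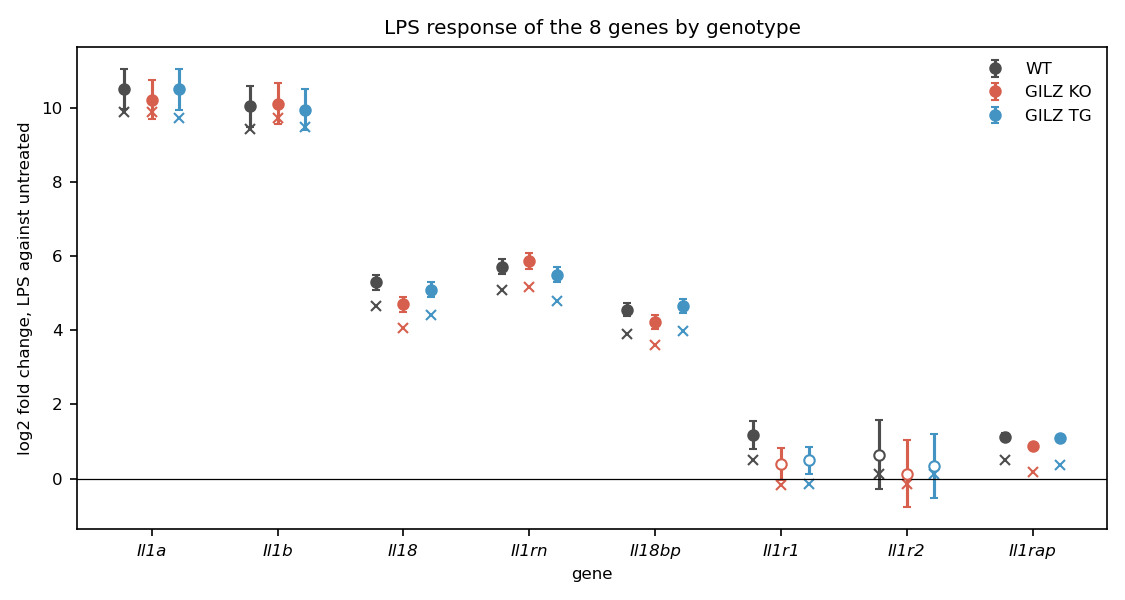
Log2 fold change of LPS against untreated for the 8 genes in WT, GILZ KO and GILZ TG cells, from edgeR on counts (circles with SE bars, filled where called) and from limma on log2(TPM + 0.1) (crosses). The crosses lie below the circles for all 8 genes, and those of Il1r1 in GILZ KO and GILZ TG and of Il1r2 in GILZ KO lie below 0.

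The receptor genes responded little. Il1rap, the accessory chain, had 10.6, 9.18 and 8.54 TPM in untreated WT, 10.85, 11.01 and 11.8 in GILZ KO and 8.58, 9.95 and 8.98 in GILZ TG, and 13.2, 13.6 and 13.1, 12.4, 13.1 and 12.7, and 10.6, 11.7 and 13.3 TPM after LPS. Treated libraries lay above all untreated libraries within each genotype, as they did for 16.3%, 16.4% and 15.7% of all genes in WT, GILZ KO and GILZ TG, but the steps were small. On the count scale it rose by 1.13 ± 0.09, 0.87 ± 0.09 and 1.09 ± 0.09 in WT, GILZ KO and GILZ TG (edgeR, adjusted p = 5.88e-09, 2.30e-07 and 1.10e-08). The size of this step depended on the scale, because the TPM of all genes tested moved by a median of -0.51 in WT on log2(TPM + 1), where the count scale centred them near 0. On that scale Il1rap in GILZ KO changed by 0.17 and was not called (limma, adjusted p = 0.104).

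Il1r1, the signalling IL-1 receptor, was close to the limit of detection, with 9 to 73 counts and 0.22 to 0.91 TPM per library. It had 0.54, 0.44 and 0.22 TPM in untreated WT and 0.60, 0.55 and 0.58 after LPS, 0.38, 0.26 and 0.37 and then 0.24, 0.42 and 0.22 in GILZ KO, and 0.91, 0.75 and 0.36 and then 0.66, 0.82 and 0.32 in GILZ TG. Its highest values in each treatment were those of GILZ TG replicates 1 and 2. LPS raised it in WT by 1.17 ± 0.38 (edgeR, adjusted p = 0.0115), a call that was lost without WT untreated replicate 3 (0.85, adjusted p = 0.0648) and on log2(TPM + 1) (0.18, adjusted p = 0.234). In GILZ KO and GILZ TG the log2 fold change was 0.39 ± 0.43 and 0.49 ± 0.36 (edgeR, adjusted p = 0.437 and 0.246), and on log2(TPM + 1) it turned to -0.05 and -0.06.

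Il1r2, the decoy receptor, had 1 to 15 counts and 0.05 to 0.82 TPM per library, so that a difference was not detectable at this depth. Its log2 fold change after LPS was 0.65 ± 0.93 in WT, 0.13 ± 0.90 in GILZ KO and 0.34 ± 0.86 in GILZ TG (edgeR, adjusted p = 0.556, 0.91 and 0.748), and all 6 groups overlapped. After LPS it was too low to be tested between genotypes.

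Some of these genes share genomic bases with a gene on the opposite strand. The libraries were made with a directional kit, but whether the counting used strand is not given in the sources used here, and without strand the reads of such genes cannot be told apart. Over the LPS libraries the partners Gm14023 of Il1a, Il1bos of Il1b and Gm20319 of Il1rap had at most 7.86, 7.01 and 1.01 TPM. Gm16894, the partner of Il1r2, had at most 0.23 TPM in untreated libraries, where Il1r2 had 0.05 to 0.82, and 0 after LPS. Bco2, which shares 1 exon of Il18, had 7.97 to 11.9 TPM after LPS and 0.21 to 0.53 before it. Numa1, which shares 80 bases with Il18bp, had 29.1 to 42.5 TPM after LPS and 64.7 to 81.8 before it.

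The transcript ratio of inhibitor to agonist fell with LPS for Il1rn to Il1b and for Il18bp to Il18. Protein was not measured in these libraries. In each library the TPM of Il1rn was divided by that of Il1b, after adding 0.1 TPM to both. The median ratio fell from 4.32 to 0.211 in WT, from 4.85 to 0.170 in GILZ KO and from 4.84 to 0.193 in GILZ TG. Untreated libraries all held more Il1rn than Il1b, from 1.82 to 10.15 times, and treated libraries all held less, from 0.143 to 0.28 times. The mean log2 ratio changed by -4.34, -4.55 and -4.71 in WT, GILZ KO and GILZ TG and by -4.53 over all 18 libraries (two-sided exact permutation test within genotype, p = 0.00025, the smallest that it can give, adjusted p = 0.007 over the 28 ratio tests).

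Il18bp relative to Il18 moved in the same direction by less. The median ratio went from 0.607 to 0.353 in WT, from 0.454 to 0.315 in GILZ KO and from 0.461 to 0.389 in GILZ TG. In WT and GILZ KO all treated libraries were below all untreated libraries, and in GILZ TG the ranges overlapped. The mean log2 ratio dropped by 0.54 over all libraries (exact permutation test, p = 0.00125, adjusted p = 0.0175). Il1a relative to Il1b changed by 0.30 (exact permutation test, p = 0.0985, adjusted p = 0.35), and without GILZ TG untreated replicate 1 by 0.46 (exact permutation test, p = 0.0015, not adjusted). Il1r2 relative to Il1r1 changed by -0.03 (exact permutation test, p = 0.954, adjusted p = 0.99).

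**Figure D3:**
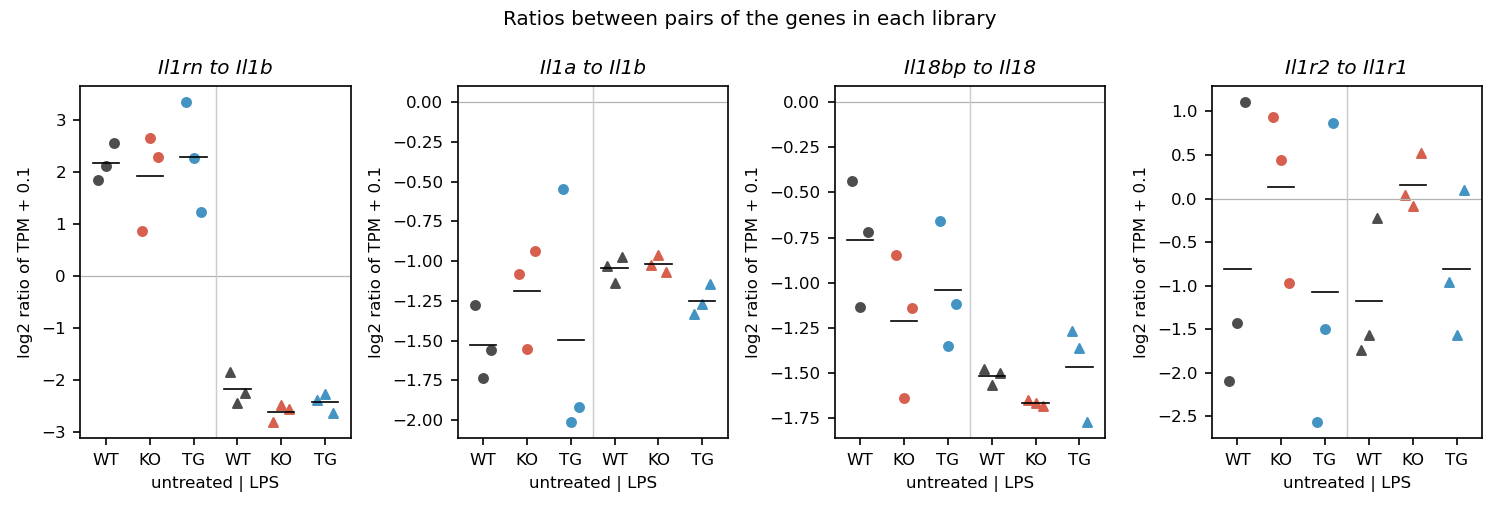
Log2 ratio of the TPM + 0.1 of 4 gene pairs in every library of WT, GILZ KO (KO) and GILZ TG (TG) cells, untreated (circles) or after LPS (triangles), with lines at the group means. Il1rn to Il1b lies above 0 in all untreated libraries and below 0 in all treated libraries, and the ratio of Il1r2 to Il1r1 scatters widely.

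Between genotypes in the untreated state, Il1rap was the only member called. GILZ KO exceeded GILZ TG by 0.29 ± 0.07 on the log2 scale (edgeR, adjusted p = 0.0493), and its GILZ KO libraries at 10.85 to 11.8 TPM lay above all those of GILZ TG at 8.58 to 9.95. This was 1 of 8 members, where 4.94% of the 12621 genes tested were called, and 18.6% of them had GILZ KO libraries that all lay above GILZ TG. The call was lost on log2(TPM + 1) (limma, adjusted p = 0.166), with the replicate block (adjusted p = 0.0606) and without GILZ TG replicates 1 and 2 (0.21, adjusted p = 0.308). It was also lost when any of GILZ KO replicates 1 to 3, GILZ TG replicates 1 and 2 or WT replicate 2 was left out, with values of 0.24 to 0.32 (edgeR, adjusted p = 0.0825 to 0.158), and it was kept by DESeq2 (adjusted p = 0.0302).

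No member was called in GILZ KO against WT before LPS (0 of 8, with 0.0951% of all genes called), or in GILZ TG against WT (0 of 8, with 0.642% called). By unadjusted p under 0.05, edgeR had 2 members in the GILZ KO comparison and 0 in the GILZ TG comparison. Over the 12621 genes tested these edgeR counts were 1211 and 1780. DESeq2 had 1 and 0 members at that level, limma on log2(TPM + 1) 2 and 0, and limma on log2(TPM + 0.1) 1 and 0. By adjusted p, DESeq2 and limma called 0 in both. The 2 members of edgeR were Il1rap, at 0.16 ± 0.07 with GILZ KO above all WT libraries (edgeR, adjusted p = 0.517), and Il1rn, at -0.21 ± 0.08 (edgeR, adjusted p = 0.493). GILZ KO libraries lay wholly above WT for 12.7% of all genes. Il1r1 differed by 0.75 ± 0.38 in GILZ TG against WT (edgeR, adjusted p = 0.414) and by -1.02 ± 0.39 between GILZ KO and GILZ TG (edgeR, adjusted p = 0.148). These values moved to -0.11 and -0.16 without GILZ TG replicates 1 and 2, and without GILZ TG replicate 3 the latter reached -1.32 (edgeR, adjusted p = 0.039). Without that replicate 1306 of 12893 genes were called in GILZ KO against GILZ TG, against 623 of 12621 with it.

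After LPS no member was called in any genotype comparison. The counts were 0 of 7 in GILZ KO against WT (0.0822% of the 12164 genes tested were called), 0 of 7 in GILZ TG against WT (0.46%) and 0 of 7 in GILZ KO against GILZ TG (2.6%). Members with an unadjusted p under 0.05 by edgeR numbered 2, 0 and 3, beside 1171, 1852 and 2328 of all genes. They numbered 2, 0 and 2 by DESeq2, 1, 0 and 3 by limma on log2(TPM + 1), and 2, 0 and 3 on log2(TPM + 0.1). By adjusted p, DESeq2 and limma called 0 members in each comparison.

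In GILZ KO the ligands Il1a and Il1b were higher than in every WT library after LPS, at 2819 to 2932 against 1833 to 2374 TPM and at 5701 to 6103 against 3741 to 4802 TPM. The differences of 0.43 ± 0.28 and 0.40 ± 0.25 did not pass the test (edgeR, adjusted p = 0.657 and 0.648). GILZ KO lay wholly above WT for 9.62% of all genes and wholly below it for 6.66%. The latter applied to Il18bp, at -0.40 ± 0.11 (edgeR, adjusted p = 0.295), to Il1r1, at -1.02 ± 0.37 (edgeR, adjusted p = 0.424), and to Il1rap. Il18bp in GILZ KO was also below all GILZ TG libraries, at -0.34 ± 0.11 (edgeR, adjusted p = 0.13), as were 9.36% of all genes. Without GILZ TG replicates 1 and 2 this difference of Il18bp was -0.43.

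**Figure D4:**
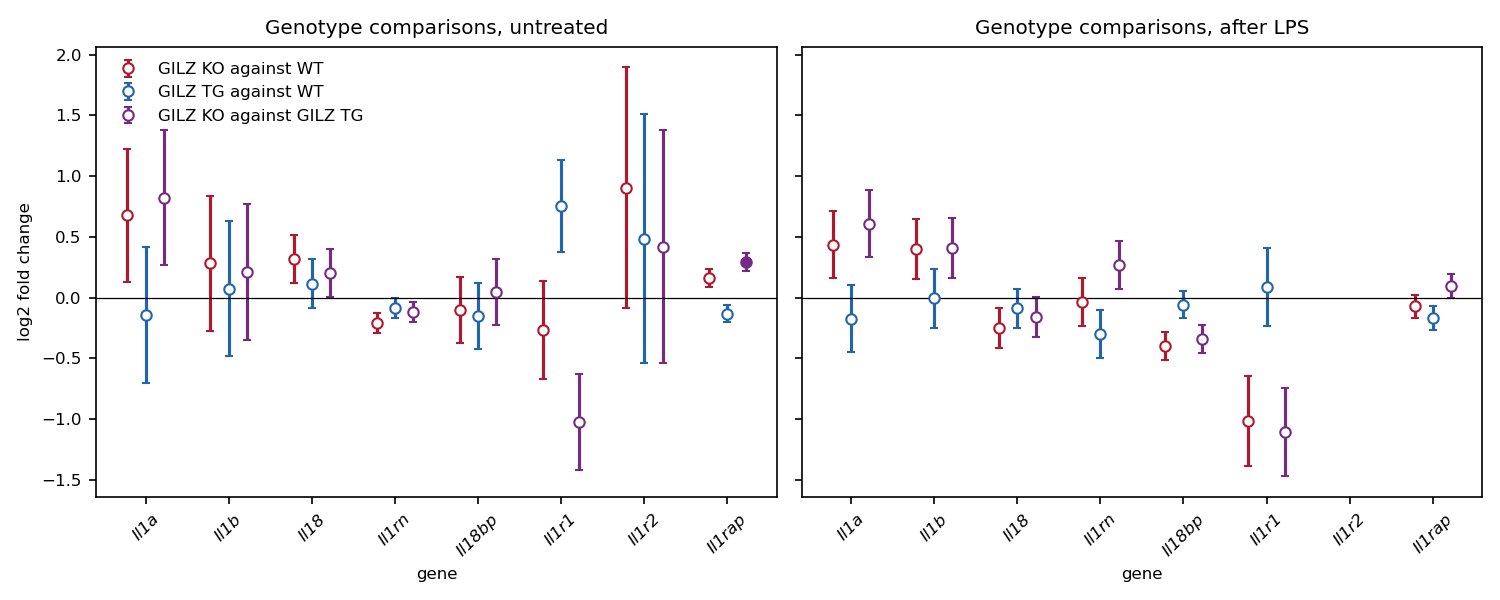
Log2 fold change ± SE from edgeR for the 3 genotype comparisons of the 8 genes, untreated (left) and after LPS (right), with filled circles where called. Il1rap in untreated GILZ KO against GILZ TG is the only filled circle, and Il1r2 was not tested after LPS.

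The GILZ TG libraries were divided after LPS. Il1a had 1255 and 1364 TPM in replicates 1 and 2 but 3003 in replicate 3, and Il1b had 3157 and 3293 but 6637. Replicates 1 and 2 were thus below every WT library and replicate 3 was above every WT and GILZ KO library, while Il1r1 ran the other way, with 0.66, 0.82 and 0.32 TPM. Over all 3 replicates the difference from WT was -0.17 ± 0.28 for Il1a, -0.01 ± 0.25 for Il1b, -0.30 ± 0.20 for Il1rn and -0.17 ± 0.10 for Il1rap (edgeR, adjusted p = 0.813, 0.995, 0.516 and 0.44).

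Without GILZ TG replicate 3, 4 members were called lower than in WT after LPS, where 8.52% of the 12524 genes tested were called and 4.07% called lower, against 0.46% called with all 3 replicates. The values were -0.72 for Il1a, -0.47 for Il1b, -0.63 for Il1rn and -0.29 for Il1rap (edgeR, adjusted p = 0.00198, 0.0232, 0.0102 and 0.03). Without GILZ TG replicates 1 and 2, which leaves a lone GILZ TG library assumed to vary like the other groups, none was called (43 of 12592 genes were) and the values turned to 0.53, 0.62, 0.18 and 0.07 (edgeR, adjusted p = 0.192, 0.125, 0.855 and 0.944). The direction of the difference between GILZ TG and WT thus rested on which libraries were kept.

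The comparison of GILZ KO with GILZ TG after LPS behaved likewise. It gave 0.61 ± 0.28 for Il1a, 0.41 ± 0.25 for Il1b, 0.27 ± 0.20 for Il1rn and -1.11 ± 0.36 for Il1r1 (edgeR, adjusted p = 0.261, 0.41, 0.507 and 0.126). Without GILZ TG replicate 3 these 4 were called, as were 11.2% of all genes, at 1.15, 0.87, 0.59 and -1.37 (edgeR, adjusted p = 0.000107, 0.000679, 0.0103 and 0.0134). Without GILZ TG replicates 1 and 2 they were -0.10, -0.23, -0.22 and -0.19, and none was called (34 of 12592 genes were). The markers of other cells moved with these values. Summed stromal markers stood at 87.55, 121 and 12.8 TPM in GILZ TG replicates 1, 2 and 3 after LPS, neutrophil lineage markers at 218, 516 and 83.5 and B lineage markers at 49.5, 102 and 11.8. Their part in the differences was not tested.

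**Figure D5:**
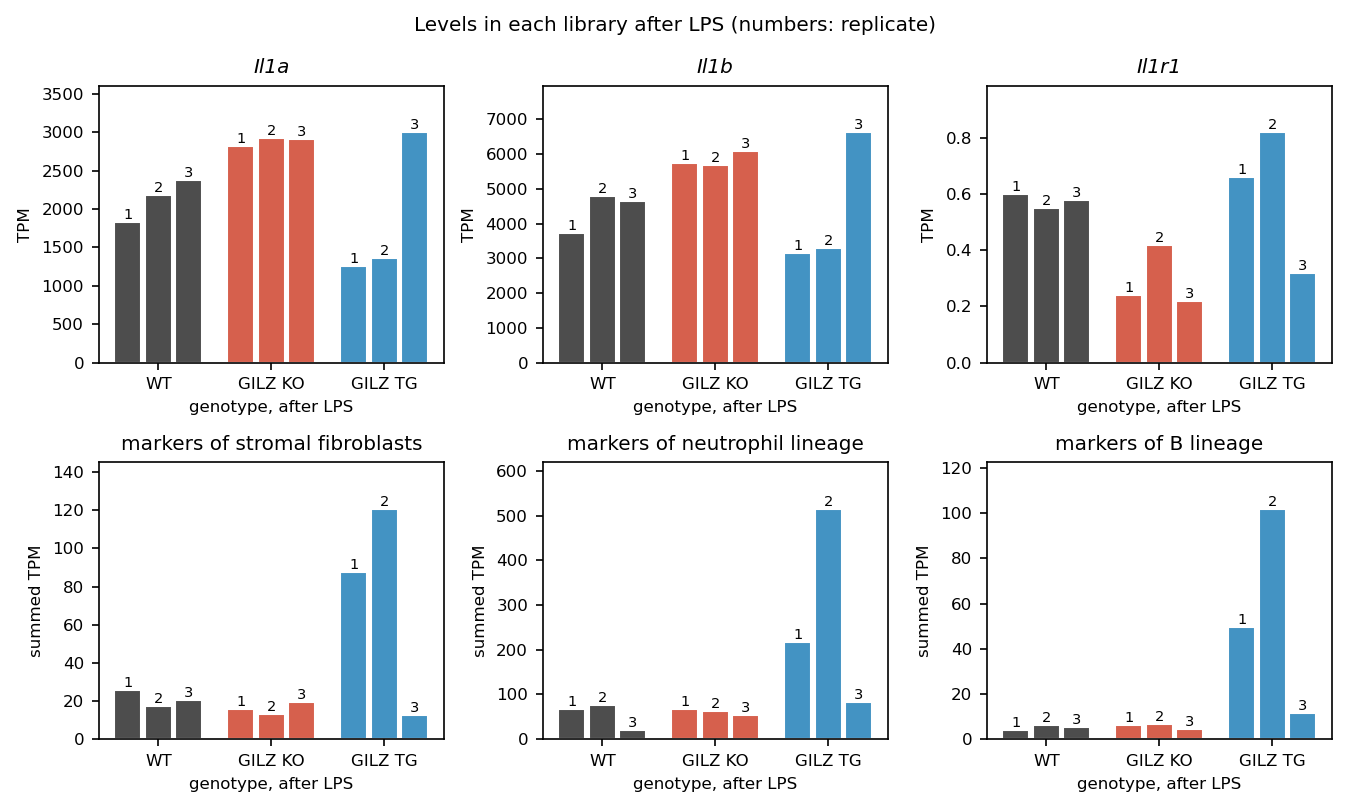
TPM of Il1a, Il1b and Il1r1 (top) and summed TPM of stromal, neutrophil lineage and B lineage markers (bottom) in each library after LPS, with the replicate number above each bar. GILZ TG replicates 1 and 2 are low for Il1a and Il1b and high for Il1r1 and the markers, and replicate 3 is high for Il1a and Il1b and below both for Il1r1 and the markers.

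The response to LPS itself did not differ by a called amount between genotypes for any member. Of the 8 tested, 0 were called in each of the 3 tests of the difference in response (GILZ KO against WT with 0.0152% of all genes called, GILZ TG against WT with 0.00759% and GILZ KO against GILZ TG with 0.121%). By edgeR 0 members had an unadjusted p under 0.05 in any of them, beside 838, 407 and 1306 of the 13169 genes. In GILZ KO against WT, 1 member by DESeq2 and 2 by limma on either TPM scale had an unadjusted p under 0.05. By adjusted p, DESeq2 and limma called 0 in each of the 3 tests. Without GILZ TG replicates 1 and 2, 0 members and 0 of 13460 genes were called in both differences with GILZ TG. The nearest were Il18, whose response was smaller in GILZ KO than in WT by a difference of -0.60 ± 0.29 (edgeR, adjusted p = 0.789), and Il1rap, at -0.26 ± 0.13 (edgeR, adjusted p = 0.799). For Il1a and Il1b the standard errors of this difference were 0.64 and 0.63, against 0.29 for Il18.

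Between genotypes, with 3 libraries against 3, the exact permutation test of a ratio cannot give a p under 0.1. That value was reached after LPS by Il1rn to Il1b in GILZ KO against WT, at -0.44, by Il18bp to Il18 and Il1r2 to Il1r1 in the same comparison, at -0.15 and 1.34, by Il1a to Il1b in GILZ TG against WT, at -0.20, and by Il1a to Il1b in GILZ KO against GILZ TG, at 0.23 (exact permutation test, adjusted p = 0.35 each). The ratio of Il1r2 to Il1r1 rests on few counts. Il1b was slightly higher relative to Il1a after LPS in all GILZ TG libraries than in any library of the other genotypes.

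Genes that take part in making and sensing IL-1 also responded. After LPS, 68.6%, 68.5% and 68.7% of all genes were called in WT, GILZ KO and GILZ TG, as background to every list on the count scale. Called higher were 33.5%, 33.2% and 33.6%, and called lower were 4622, 4658 and 4620 of the 13169 genes. On log2(TPM + 1) in limma, 2114, 2015 and 2050 of these genes were called higher. Those called lower numbered 8556, 8702 and 8588 on that scale. The 8 genes of maturation and release had 7 called higher and 1 lower after LPS in WT, 6 and 1 in GILZ KO and 7 and 1 in GILZ TG, with medians of 1.08, 1.15 and 1.12. The largest in WT were Casp4, which senses intracellular LPS, at 3.63 ± 0.11, Nlrp3, the inflammasome sensor, at 3.33 ± 0.08 and Casp1, which cuts the IL-1β precursor, at 2.89 ± 0.11 (edgeR, adjusted p = 1.53e-14, 4.74e-16 and 1.52e-13). P2rx7, the ATP-gated channel that can trigger the inflammasome, fell by 0.64 on the log2 scale (edgeR, adjusted p = 8.87e-07). On log2(TPM + 1) the list had 4 higher and 2 lower in WT, and Nek7, Ninj1 and Pycard took the other sign. It had 4 and 3 in GILZ KO, with Nek7 of the other sign, and 4 and 2 in GILZ TG, with Pycard.

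Among 19 genes of receptor signalling, 14 were called higher and 3 lower in each genotype, with medians of 0.881, 0.966 and 0.948. Of all genes, 33.5%, 33.2% and 33.6% were called higher in WT, GILZ KO and GILZ TG. Nfkbiz, an inducible nuclear IκB protein, rose by 5.24 ± 0.11 in WT, Peli1, a ubiquitin ligase of the pathway, by 4.53 ± 0.10 and Nfkb1, an NF-κB subunit, by 3.00 ± 0.07 (edgeR, adjusted p = 2.33e-16, 2.33e-16 and 9.37e-16). On log2(TPM + 1) 9 were higher and 6 lower in WT, and 10 higher and 8 lower in both GILZ KO and GILZ TG. On that scale 2114, 2015 and 2050 of the 13169 genes were called higher in WT, GILZ KO and GILZ TG. Called lower were 8556, 8702 and 8588. Chuk, Tollip and Traf6 took the other sign in each genotype.

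Of 6 further ligands of the family 3 passed the filter on low counts, and all 3 were called higher in each genotype. In WT, Il36a had 0 or 1 count in untreated libraries and 59 to 67 after LPS, and Il33 had 0 or 1 and then 24 to 35, so no fold change is given for either. Il36g had 0.69 to 1.38 TPM and then 11.3 to 14.6, and rose by 4.21 ± 0.25 (edgeR, adjusted p = 1.04e-10). Among 7 further receptor genes 4 were tested, with 0 higher and 1 lower in WT, 0 and 2 in GILZ KO and 0 and 1 in GILZ TG, and medians of -0.413, -0.949 and -0.171. The gene lower in WT was Sigirr, an inhibitory receptor of the family, which fell by 0.96 ± 0.28 (edgeR, adjusted p = 0.00518).

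In genotype comparisons 3 of these pathway genes were called. Of the 8 genes of maturation and release, 1 was called higher in untreated GILZ TG against WT, where 0.642% of all genes were called. In untreated GILZ KO against GILZ TG, where 4.94% were called, 1 of these 8 was higher and 1 lower. The 19 signalling genes had 1 higher there and 1 higher after LPS, where 2.6% were called. Nlrp3 had 86.55 to 89.7 TPM in untreated GILZ TG, 65.7 to 69.6 in WT and 61.7 to 72.0 in GILZ KO. GILZ TG exceeded WT by 0.34 ± 0.06, and GILZ KO differed from GILZ TG by -0.35 ± 0.06 (edgeR, adjusted p = 0.0377 and 0.0163). Casp1 had 117 to 133 TPM in untreated GILZ KO and 90.8 to 106 in GILZ TG, a difference of 0.32 ± 0.08 (edgeR, adjusted p = 0.0447). Untreated GILZ KO libraries lay wholly above GILZ TG for 18.6% of all genes. Irak3, an inhibitor of MyD88 signalling, exceeded GILZ TG levels in GILZ KO, with 22.2 to 25.45 against 16.8 to 19.1 TPM untreated and 88.6 to 104 against 46.4 to 65.6 after LPS. Its log2 difference was 0.38 ± 0.08 and 0.81 ± 0.13 (edgeR, adjusted p = 0.0332 and 0.0141). All 5 calls were lost when some single library was left out, with adjusted p up to 0.21 for Nlrp3 in GILZ TG against WT, 0.0795 in GILZ KO against GILZ TG, 0.169 for Casp1 and 0.134 and 0.079 for Irak3. They were also lost without GILZ TG replicates 1 and 2, where the values were 0.35, -0.36, 0.16, 0.33 and 0.51.

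The genes most like each member were taken as the 3 with the highest Pearson r of log2(TPM + 1) over the 18 libraries, among 9423 genes with a mean of at least 5 TPM. The values are a description with no test, and for the ligands, Il1rn, Il18bp and Il1rap the difference between the 2 treatments is part of every r. For Il1a they were Il6 (r = 0.9986), Il1b (0.9983) and Edn1 (0.9973), and for Il1b they were Il1a, Ccrl2 (0.9975) and Il6 (0.9968). Il18 was most like Ms4a4c (0.9981), Klf6 (0.9981) and Usp18 (0.998), and Il1rn most like Slfn4 (0.9986), Olfr56 (0.9984) and Ccnj (0.9982). Il18bp was most like Oas1g (0.997), Phf11c (0.9966) and Oas1a (0.9961), which are members of closely related gene families whose reads may be shared between copies. The receptor genes had lower values. Il1rap was most like Ascc3 (0.923), Diaph2 (0.922) and Actr2 (0.919), and Il1r2, at few counts, most like Lsp1 (0.825), Stom (0.796) and Spn (0.762), of which Lsp1 had a mean of 252 TPM untreated and 231 after LPS. Il1r1 was most like the collagen genes Col1a1 (0.845) and Col1a2 (0.833) and the collagen chaperone Serpinh1 (0.834), and its highest values were in the libraries with the highest stromal markers. Col1a1 had a mean of 14.9 TPM untreated and 12.6 after LPS, and over the 9 LPS libraries alone its r with Il1r1 was 0.774.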

How the data were processed

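Per the labels and the study's methods, poly(A) RNA of BMMs was sequenced as single reads of 75 nt on 18 libraries. The authors mapped the reads to GRCm38 (mm10) with the grape-nf pipeline and deposited per gene an expected count and a TPM value for each library. The submitters' processing notes name FastQC 0.11.2 and DESeq2 1.40.2, and the annotation release and the strand setting are not given in the sources used here. Deposited tables of the authors' own DESeq2 comparisons (log2 fold changes and p-values) were not used, apart from their gene symbols, and 14 rows without a gene name were left out.

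Expected counts, 94.0% of them whole, were rounded and tested with edgeR 4.0.16 (quasi-likelihood, TMM, filterByExpr) under R 4.3.3, with p-values adjusted by Benjamini-Hochberg over all genes. LPS effects and differences in response were fitted on all 18 libraries, and genotype comparisons on the 9 libraries of a treatment, because LPS moved most genes. Ratios of TPM were compared by two-sided exact permutation, within genotype for LPS. Same-numbered libraries were not treated as pairs, since deviations correlated over 0.1 in all 3 pairs of untreated and treated libraries of GILZ TG but not in all those of WT and GILZ KO. No 2 replicates agreed within sampling noise, the closest having a chi-square of 3.53 per degree of freedom. That the libraries of a group are separate preparations is the study's statement, and if several came from 1 source, p-values would measure technical spread only.

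Alternatives were DESeq2 1.42.0, DESeq2 size factors, limma 3.58.1 on log2(TPM + 1) and log2(TPM + 0.1), other filters, thresholds and sets of libraries, the replicate number as a block, and each library left out. The 8 genes, the pathway and marker lists and the alternatives were chosen with earlier results of these data known. Named were the 8 genes, the 3 list genes with the largest called change after LPS in WT, and every list gene called between genotypes, whereas P2rx7 and the list genes whose sign depended on the scale were named after their values were seen. The scripts were tested on simulated data. Promoters came from RefSeq (GRCm38.p6), where all 8 genes matched, and gene positions from GENCODE on GRCm38.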

Additional observations from a re-analysis of the deposited data

How the results depend on the processing

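The calls of Il1a, Il1b, Il18, Il1rn and Il18bp after LPS held in all 3 genotypes under all alternatives that were run. Values that changed sign belonged to genes with few counts or to comparisons with GILZ TG. On log2(TPM + 1) and log2(TPM + 0.1) in limma, where the median of all genes moved by -0.508 and -0.622 in WT, the LPS change of Il1r1 became -0.050 and -0.17 in GILZ KO and -0.063 and -0.14 in GILZ TG, and that of Il1r2 -0.10 and -0.15 in GILZ KO, and -0.028 in GILZ TG on log2(TPM + 1) alone. The share of called genes that were higher after LPS in WT was 48.9% on counts and 19.8% on log2(TPM + 1). Without GILZ TG replicates 1 and 2, Il1r2 after LPS in GILZ TG became -0.42, Il1r1 in untreated GILZ TG against WT -0.11, Il1rap, Il1rn, Il1b and Il1a in GILZ TG against WT after LPS 0.066, 0.18, 0.62 and 0.53, and Il1rn, Il1b and Il1a in GILZ KO against GILZ TG after LPS -0.22, -0.23 and -0.10. The number of members called in untreated GILZ KO against GILZ TG fell from 1 to 0 with no filter, with limma on both scales, with all 18 or only 6 libraries, with the replicate block, without GILZ TG replicates 1 and 2 and at an adjusted p under 0.01. The ratio of Il1r2 to Il1r1 became 0.13 after LPS with no pseudocount. The cause of these shifts was not tested.

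Leaving out 1 library at a time moved the LPS change of Il1r2 between -0.36 and 2.25 in WT, -0.29 and 0.89 in GILZ KO and -0.12 and 1.57 in GILZ TG. The number of members called ranged from 0 to 2 in untreated GILZ KO against GILZ TG, and from 0 to 4 in both comparisons with GILZ TG after LPS. The highest counts came without GILZ TG replicate 3. There 1306 of 12893 genes were called in untreated GILZ KO against GILZ TG. After LPS 1067 of 12524 were called in GILZ TG against WT and 1403 of 12524 in GILZ KO against GILZ TG. In GILZ TG against WT after LPS, Il1b ranged from -0.47 to 0.18 and Il1a from -0.72 to 0.043. The LPS change of the ratio of Il1a to Il1b ranged from 0.21 to 0.46, with exact permutation p from 0.0015, without GILZ TG untreated replicate 1, to 0.278, and that of Il1r2 to Il1r1 from -0.28 to 0.29.

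Deviations from the group means correlated over 0.1 in 4 of 9 pairs of untreated and treated libraries with the same number (-0.0335 to 0.605) and in 2 of 18 pairs across genotypes (-0.136 to 0.241), so the replicate numbers were not taken as pairs overall. All 3 pairs of GILZ TG were among the 4 (0.266, 0.397 and 0.605), so that same-numbered GILZ TG libraries deviated together, and the fourth was WT replicate 1 (0.264). Apart from the count above, the replicate block moved no count of members called by over 1.5 times. The chief limits are depth for Il1r1 and Il1r2, at most 73 and 15 counts per library, and n = 3, with which the exact test between genotypes cannot pass 0.05.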
